A study of Ovis aries with 16 samples.

Results

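Hypoxia was compared with normoxia in fetal sheep that had all received ketamine: the 4 hippocampus arrays of the hypoxia ketamine group (HK) were set against the 4 of the normoxia ketamine group (NK), 8 of the 16 hippocampus arrays. The arrays were chosen by their labels alone, with 1 array per fetus. NK and HK fetuses (Ovis aries, late gestation, chronically catheterized) were given ketamine at 3 mg/kg intravenously before a stimulus of 30 min. In HK the stimulus was ventilatory hypoxia of the ewe, in NK it was normoxia, and in both the hippocampus was taken after a further 23.5 h of normoxia. The groups without ketamine, hypoxia control (HC, 5 arrays) and normoxia control (NC, 3 arrays), shared the same schedule and entered as the reference for how the hypoxia difference looked without the drug. The fetuses were nearly all twins, and pregnancies were randomised to normoxia or hypoxia, so no HK fetus was a littermate of an NK fetus. Fetuses within a group may have shared a ewe, as may HK with HC fetuses and NK with NC fetuses. The labels do not say which did, and the p-values treat all fetuses as separate. The strain was not given in the sources used here.

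The fetus answers low oxygen through hypoxia-inducible factors, which turn on genes of glucose uptake, angiogenesis and red cell formation, and through redistribution of blood flow toward the brain. Reoxygenation can be followed by inflammation in the brain: microglia release cytokines and chemokines, endothelium displays selectins, and neutrophils and monocytes are recruited from blood. Ketamine, an anaesthetic, blocks the NMDA class of glutamate receptors. The comparison asks which differences between hypoxic and normoxic fetuses were present about a day later in tissue that had been exposed to the drug.

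Each array gave 1 level per probe, the log2 of the processed intensity minus the 75th percentile of that array's probes, so 0 marks the same intensity rank on every array and a difference of 1 is a doubling. The 75th percentiles lay between 882 and 1199 intensity units, and 76.7% to 82.6% of spots were well above background, which for this scanner software means more than 13 background standard deviations. Of the 15008 probes, 12545 passed the filter (at least 3 of the 16 arrays well above background) and were tested, and 1273 of these carried a gene name, 826 different names in all. The remaining probes are known here by an expressed-sequence identifier. Astrocyte and neuronal markers were present throughout: 5 of 11 listed astrocyte markers and 7 of 25 listed hippocampal neuron markers were tested, and each of them was well above background on all 8 arrays. No oligodendrocyte marker had a tested probe. One NK array stood apart in choroid plexus genes. The 5 tested markers of that epithelium averaged 2.76 above the NK mean in NK2, against -1.40, -0.94 and -0.43 in the other NK arrays. The HK arrays lay between -0.59 and 0.47. Transthyretin (TTR), the main secreted protein of that epithelium, ranged from -0.55 to 6.14 in NK and from 0.16 to 5.65 in HK, and its spot was saturated on 1 NK array.

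Across all tested probes, a difference at an unadjusted p under 0.05 (limma), called the criterion below, was about as frequent as the 627 probes that the criterion alone would give. In HK-NK, 352 probes were raised (2.81% of 12545) and 308 were lowered (2.46%), together 660 or 5.26%. No probe passed after Benjamini-Hochberg adjustment, where the smallest adjusted p was 0.836, and the words raised and lowered below refer to the unadjusted criterion alone. The raised probes had a median difference of 0.63 and the lowered probes one of -0.44, so the larger differences were mostly upward. The 4 HK arrays lay wholly above or wholly below the 4 NK arrays in 417 probes (3.32%), 234 above (1.87%) and 183 below (1.46%). Orderings of 4 against 4 alone would give a share not far below this, so absence of overlap is by itself no evidence of a difference. Named probes leaned further upward. Of 1273 named probes, 70 were raised (5.50%) and 22 were lowered (1.73%), which came to 53 and 19 gene names. With 1 probe per listed or named gene, 43 of 815 genes were raised (5.28%) and 15 were lowered (1.84%), with a median difference of 0.02, and these shares are the background for every gene list below. For comparison, HC-NC, which shares no array with HK-NK but may share ewes, had 1356 probes at the criterion (10.8%), 570 raised (4.54%) and 786 lowered (6.27%).

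**Figure D1:**
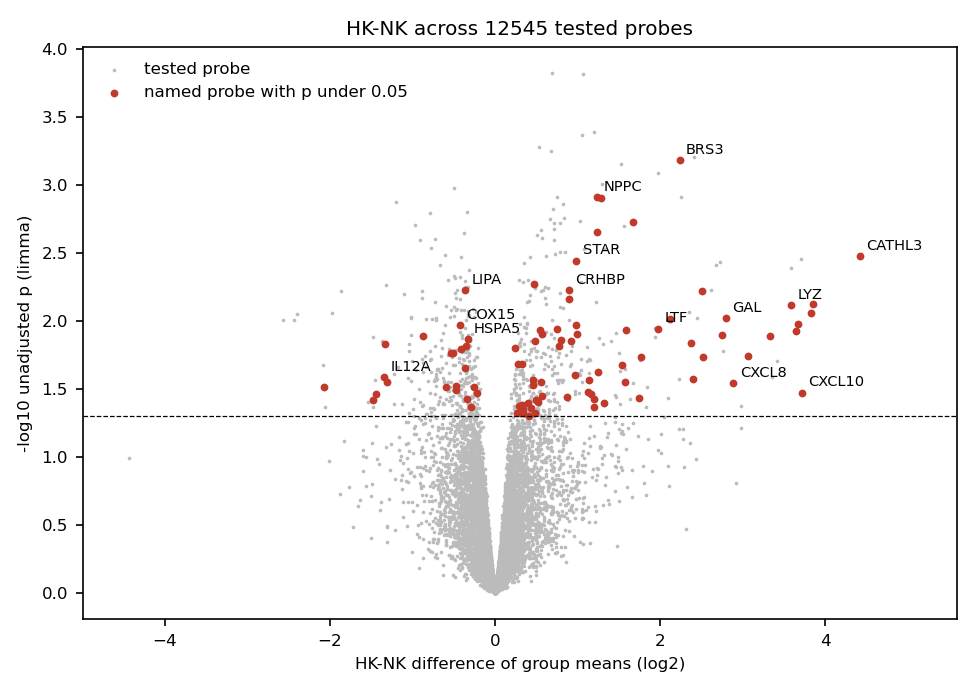
Each point is 1 of 12545 tested probes, with the HK-NK difference of group means (log2) on the x axis and -log10 of the unadjusted limma p on the y axis. The dashed line is the criterion of 0.05, and red points are named probes beyond it, 70 to the right and 22 to the left of 0.

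Genes of phagocyte defense had the largest share of raised members among the pathway lists. Of 14 tested genes, 7 were raised and 0 lowered, with a median HK-NK difference of 1.24, and 12 of 14 were higher in HK on average. The raised members were the cathelicidins CATHL3, CATHL1B, BAC5 and SC5, antimicrobial peptides stored in neutrophil granules, together with lactoferrin (LTF), an iron-binding granule protein, lysozyme (LYZ), which cleaves bacterial cell walls, and SLC11A1, a metal transporter of the phagosome. The list was drawn up with earlier results of these data known, so its count stands beside the 5.28% of genes raised overall as a description of these libraries.

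CATHL3 had the largest difference of any named probe that met the naming rule. Its levels were -3.88, -4.22, -6.05 and -2.10 in NK1 to NK4 and -1.89, 2.53, -2.0 and 2.79 in HK1 to HK4. All HK arrays lay above the NK arrays, but by a margin that came from HK2 and HK4, whereas HK1 and HK3 were near the highest NK array. The difference was 4.42 ± 1.26 (SE), a 21.4-fold ratio of geometric means (limma, unadjusted p = 0.00336, adjusted p = 0.873), and it stayed at the criterion when any 1 of the 8 arrays was left out. CATHL1B followed the same arrays, at -3.02, -3.14, -4.97 and -1.40 in NK1 to NK4 and -1.89, 2.85, -1.12 and 3.06 in HK1 to HK4. NK4 lay above HK1, so the groups overlapped, and the difference was 3.86 ± 1.24 (unadjusted p = 0.00757, adjusted p = 0.901). BAC5 differed by 3.65 ± 1.27 and SC5 by 3.07 ± 1.15, again with HK2 and HK4 as the high arrays. The call for SC5 was lost without HK2 or without HK4. Cathelicidins are a multigene family, and cross-hybridisation between members was not tested. Between probes of different cathelicidin genes the longest identical run was 12 of 60 bases.

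For LTF the levels were -5.67, -4.85, -4.69 and -4.83 in NK1 to NK4 and -3.97, -1.83, -4.47 and -1.84 in HK1 to HK4. The groups did not overlap, and HK2 and HK4 were again the high pair, while HK3 lay just above NK. The difference was 1.98 ± 0.68 (3.95-fold, unadjusted p = 0.0114, adjusted p = 0.901), kept without each array in turn. LYZ is read by a pair of probes that share a run of 40 bases, printed here in capitals because the pair is 1 stretch of transcript rather than 2 separate measurements.

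LYZ, probe A_70_P051227: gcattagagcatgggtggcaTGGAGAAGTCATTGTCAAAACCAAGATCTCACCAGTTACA
LYZ, probe A_70_P051226: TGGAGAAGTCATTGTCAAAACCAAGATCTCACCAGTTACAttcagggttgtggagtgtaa
LTF, probe A_70_P030196: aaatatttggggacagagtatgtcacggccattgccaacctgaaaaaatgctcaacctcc

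The brighter LYZ probe gave -6.30, -4.48, -8.57 and -6.57 in NK1 to NK4 and -3.41, -0.59, -5.17 and -3.42 in HK1 to HK4. HK2 was highest and HK3 lay below NK2, so the groups overlapped. The difference was 3.33 ± 1.17 (unadjusted p = 0.0128, adjusted p = 0.901), and the other probe gave 3.59 ± 1.16, and without HK2 the brighter probe no longer met the criterion. SLC11A1 was at -5.77, -4.81, -5.05 and -5.03 in NK1 to NK4 and -2.40, -3.12, -5.18 and -3.67 in HK1 to HK4. Here HK1 was the highest array, and HK3 was within the NK range, so the high arrays were not the same as for the cathelicidins. The difference was 1.57 ± 0.64 (unadjusted p = 0.0283, adjusted p = 0.901), lost without NK1, HK1 or HK2, and a second probe, well above background on 2 of 4 NK arrays, gave 2.51 ± 0.78. Members of the list that did not reach the criterion included the inducible nitric oxide synthase NOS2, the plasminogen activator PLAU and its receptor PLAUR. The oxidase subunits CYBA and, with its brighter probe, CYBB did not reach it either. A dimmer CYBB probe, sharing a run of 59 bases with the brighter, met the criterion. CLEC6A, a C-type lectin receptor of myeloid cells from the microglia and macrophage list, differed by 2.01 ± 1.02 with its brighter probe (unadjusted p = 0.068, adjusted p = 0.946), not at the criterion. Its dimmer probe was -7.39, -6.40, -8.89 and -8.85 in NK1 to NK4 and -6.48, -2.09, -6.61 and -5.37 in HK1 to HK4, with HK1 and HK3 below NK2, a difference of 2.75 ± 0.96 (unadjusted p = 0.0127, adjusted p = 0.901).

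Neutrophil markers moved with this list. Only 4 of 19 listed markers were tested, CATHL3, LTF, BAC5 and SC5, and all 4 were raised, with a median of 3.36, but all 4 are also in the phagocyte list and are no separate evidence. Their summed level, in multiples of the array's 75th percentile, was 0.159 to 0.686 in NK and 0.672 to 17.5 in HK. The means above the NK mean were 1.15, 5.14, 1.51 and 5.32 in HK1 to HK4. Of the 6 tested microglia and macrophage markers none was at the criterion (median 0.48), and 4 were higher in HK on average while the others were lower. CD14 was -3.57, -3.09, -3.23 and -2.95 in NK1 to NK4 and -1.40, -2.15, -3.26 and -2.74 in HK1 to HK4, with HK1, HK2 and HK4 above every NK array. The summed level of the 6 was 0.555 to 0.653 in NK and 0.585 to 1.28 in HK. None of 7 lymphocyte markers was at the criterion (median -0.21), nor was hemoglobin HBB, with a difference of -0.02 ± 0.42, or AHSP, the hemoglobin chaperone, with 1.07 ± 0.66. In bulk tissue, more cells of a type and more RNA per cell cannot be told apart, and the part of blood left in the vessels was not tested. Without HK2 the phagocyte defense list had 4 raised members and a median of 0.94. Without HK4 it had 6 and 1.16. On the first slide alone it had 3 and 1.51, and on the second 0 and 1.02. With the values of the authors' table the median was 0.21, with 5 raised, and with another background correction (normexp without the spots far below their local background) 0.44, with 6 raised.

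**Figure D2:**
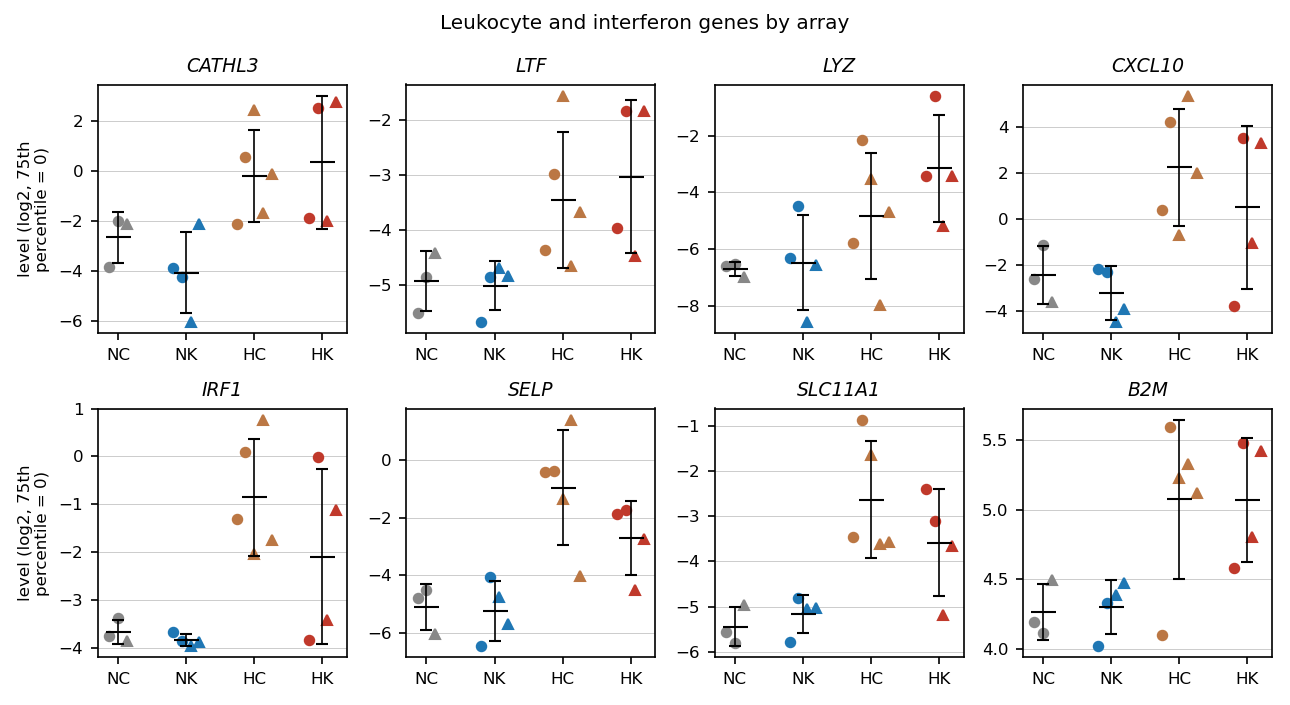
Level of 8 genes on each array (log2, 75th percentile of the array = 0) in NC, NK, HC and HK, circles for the first slide and triangles for the second, with bars for the mean and SD. For CATHL3, LTF, CXCL10 and IRF1 the HK group splits into HK2 and HK4, which are high, and HK1 and HK3, which lie nearer to NK.

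Interferon response genes showed the same split between arrays. Of 9 tested genes 3 were raised and 0 lowered, with a median of 0.56, and 8 of 9 were higher on average. CXCL10, a chemokine induced by interferon that attracts T cells, was at -2.21, -2.30, -4.50 and -3.94 in NK1 to NK4 and -3.81, 3.51, -1.06 and 3.30 in HK1 to HK4. HK1 lay within the NK range, HK3 just above it, and HK2 and HK4 several units above. The difference was 3.72 ± 1.58 (13.2-fold, unadjusted p = 0.0337, adjusted p = 0.932), and the call was lost without NK3, NK4, HK2 or HK4. IRF1, a transcription factor of the interferon response, gave -3.67, -3.86, -3.96 and -3.87 in NK1 to NK4 and -3.83, -0.01, -3.42 and -1.12 in HK1 to HK4, a difference of 1.75 ± 0.76 (unadjusted p = 0.037, adjusted p = 0.938). HK1 was inside the NK range, and the call was lost without any 1 array except HK1 or HK3. PSMB8, the immunoproteasome subunit, differed by 1.20 ± 0.52, without overlap (unadjusted p = 0.0373, adjusted p = 0.938), lost without NK1, NK2, NK3, HK2 or HK4. None of the interferon-stimulated genes ISG15, MX1 and MX2 was at the criterion. The list had 0 raised members without HK2 and also 0 without HK4 or without NK3, and 0 with the authors' deposited values. Its median stayed positive, between 0.48 and 0.81, when single arrays were left out.

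Antigen presentation was also mostly upward: 3 of 8 tested genes were raised and 1 lowered, and 7 of 8 were higher on average (median 0.69). Without HK2 the list had 1 raised member and a median of 0.32, and with the authors' values 2 and 0.29. Beta-2-microglobulin (B2M), the light chain of class I molecules, was 4.02, 4.33, 4.38 and 4.47 in NK1 to NK4 and 4.58, 5.48, 4.80 and 5.42 in HK1 to HK4. Each HK array was above each NK array, the difference was 0.77 ± 0.28 (unadjusted p = 0.0154, adjusted p = 0.901), and a second probe shifted by 1 base gave 0.75 ± 0.26. The call of the first probe was lost without HK2. CD1D, which presents lipids to natural killer T cells, differed by 0.48 ± 0.15 with no overlap (unadjusted p = 0.00538, adjusted p = 0.901) and kept its call without each array. CD80, a costimulatory ligand on antigen-presenting cells, was the lowered member at -0.47 ± 0.20 (unadjusted p = 0.0321, adjusted p = 0.931), with a call lost without NK3, HK1, HK2 or HK4. PSMB8 is counted in both lists. The class II chains were higher by 0.52 (OVAR-DQA1) and 0.66 (MHCII-DRB1) and were not at the criterion.

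Cytokines differed in both directions. Of 24 tested cytokines and chemokines 2 were raised and 3 lowered, with a median of 0.09. Besides CXCL10, the raised one was IL1RN, the antagonist of the interleukin 1 receptor, at 1.32 ± 0.58 (unadjusted p = 0.0398, adjusted p = 0.938). Only 2 of 4 HK arrays and 1 of 4 NK arrays were well above background for it. The lowered ones were IL12A, MIF and IL7. IL12A, a subunit of interleukin 12, was -1.84, -2.88, -2.26 and -1.59 in NK1 to NK4 and -2.78, -4.48, -2.81 and -3.74 in HK1 to HK4, and HK1 and HK3 overlapped with NK2. The difference was -1.31 ± 0.54 (unadjusted p = 0.0281, adjusted p = 0.901), and a second probe gave -1.34 ± 0.54. MIF, a pro-inflammatory cytokine, differed by -0.26 ± 0.11 (unadjusted p = 0.0306, adjusted p = 0.92). IL7, a growth factor of lymphocytes, was not well above background on any HK array and was so on 2 of 4 NK arrays. This bounds the ratio of group means at 1.65-fold or more lower in HK (means -7.79 and -6.30, unadjusted p = 0.0382, adjusted p = 0.938). The calls for IL1RN and IL12A were lost without NK1, NK4, HK2 or HK4, that for MIF without NK1, NK4 or HK3, and that for IL7 without NK3, NK4, HK1 or HK2. CXCL8, the main neutrophil chemokine, was read by a pair of probes. The dimmer was well above background on 3 of 4 HK arrays and on no NK array. The ratio of its group means was at least 3.64-fold, a bound without sampling error (means -5.49 and -8.38, unadjusted p = 0.0286, adjusted p = 0.901). The brighter gave a smaller difference, 1.51 ± 1.15, not at the criterion (unadjusted p = 0.212, adjusted p = 0.95), and the dimmer lost its call without NK1, NK2, NK3 or HK2.

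Among genes of Toll-like receptor signaling, 1 of 16 was at the criterion. TLR7, an endosomal receptor of single-stranded RNA, was -5.57, -6.15, -6.27 and -5.68 in NK1 to NK4 and -5.43, -5.09, -5.53 and -5.33 in HK1 to HK4. HK lay above NK throughout, the difference was 0.57 ± 0.20 (unadjusted p = 0.0124, adjusted p = 0.901), and the call was kept without each array, but a second TLR7 probe, which shares a run of 20 of 60 bases with the first, gave 0.21 ± 0.30, and there the groups overlapped. Of 11 tested genes that the study followed by qPCR, CXCL10 alone was at the criterion, and the median over the 11 was 0.45. Without HK2 none was at the criterion and the median was 0.11, and with the authors' values it was 0.0684, with 0 raised and 1 lowered. The study chose them on these samples. TLR4 differed by 0.50 ± 0.30, TLR2 by 0.45 ± 0.29, CD14 by 0.82 ± 0.43 and NFKBIA, the inhibitor of NF-kappa-B, by 0.68 ± 0.34. In each of these HK2 was above all 4 NK arrays. The proinflammatory cytokines TNF (0.49 ± 0.68) and IL1B (0.39 ± 0.33) each had HK2 as their highest array. MYD88, the adaptor of most Toll-like receptors, differed by -0.07 ± 0.17, and NFKB was not well above background on any of the 8 arrays. PTX3, a pentraxin of innate immunity, differed by -0.54 ± 0.58. For PTGS2, the inducible cyclooxygenase, the levels were 3.31, 2.77, 2.40 and 3.19 in NK1 to NK4 and 0.28, 1.29, 2.61 and 1.06 in HK1 to HK4, a difference of -1.61 ± 0.88 (unadjusted p = 0.0882, adjusted p = 0.946), with HK3 inside the NK range. Cytokine receptors (9 tested), prostaglandin genes (9) and complement and acute phase genes (12) had no member at the criterion.

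Selectin P (SELP), the endothelial and platelet receptor on which leukocytes roll, was the 1 raised gene of 9 tested in adhesion. Its levels were -6.46, -4.06, -4.76 and -5.69 in NK1 to NK4 and -1.89, -1.73, -4.53 and -2.74 in HK1 to HK4. HK1, HK2 and HK4 stood above all NK arrays and HK3 was within the NK range. The difference was 2.52 ± 0.95 (5.75-fold, unadjusted p = 0.0183, adjusted p = 0.901), and a second probe gave 2.40 ± 0.97. The call was lost without NK1 or HK2. ICAM1 and the beta chain ITGB2 of leukocyte integrins were higher by 0.81 and 0.42 and not at the criterion. ITGAM differed by 0.68 ± 0.35. A dimmer ITGAL probe met the criterion but was not well above background on any of the 8 arrays, so no fold is given. The brighter ITGA4 probe differed by -0.48 ± 0.62, not at the criterion, and a dimmer ITGA4 probe was lowered.

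Peptide and hormone genes included differences that were present on every HK array. Of 30 tested genes 4 were raised (NPPC, BRS3, CRHBP and AGTR1) and 0 lowered, against a median of only 0.07 over the list, and without single HK or NK arrays the count of raised members ran from 4 to 6. NPPC encodes C-type natriuretic peptide, a vascular and neural signal that acts through a guanylyl cyclase receptor, and BRS3 an orphan receptor of the bombesin family known from energy balance. The NPPC probes are the same stretch moved by 1 base, as the capitals at the unshared ends show, so they are not independent of each other. The BRS3 probes share no run longer than 6 bases and read different stretches.

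NPPC, probe A_70_P051316: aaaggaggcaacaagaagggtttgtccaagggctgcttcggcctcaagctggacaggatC
NPPC, probe A_70_P051317: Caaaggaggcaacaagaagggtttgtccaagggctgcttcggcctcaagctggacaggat
BRS3, probe A_70_P030116: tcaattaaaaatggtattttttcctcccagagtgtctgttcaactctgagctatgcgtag
BRS3, probe A_70_P030117: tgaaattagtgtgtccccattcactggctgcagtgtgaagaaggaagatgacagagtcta

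NPPC was at -3.71, -3.74, -3.05 and -3.82 in NK1 to NK4 and -2.55, -1.82, -2.57 and -2.42 in HK1 to HK4. Every HK array was above every NK array, with NK3 the highest of NK and HK2 the highest of HK. The difference was 1.24 ± 0.31 (2.36-fold, unadjusted p = 0.00123, adjusted p = 0.836), and the second probe gave 1.23 ± 0.33. BRS3 was at -8.15, -7.59, -6.40 and -9.00 in NK1 to NK4 and -5.78, -5.44, -5.23 and -5.75 in HK1 to HK4 with the first probe, and the HK arrays fell within a narrow band above all of NK. The difference was 2.24 ± 0.51 (4.71-fold, unadjusted p = 0.000655, adjusted p = 0.836) and 1.67 ± 0.44 with the second probe (unadjusted p = 0.00188, adjusted p = 0.836), although only 1 of 4 NK arrays was well above background with either probe. On each slide alone the BRS3 difference was 2.26 and 2.21, and the NPPC difference 1.54 and 0.94. Both genes stayed at the criterion without any 1 array. CRHBP, which binds corticotropin-releasing hormone, gave -0.61, -0.24, 0.22 and -1.04 in NK1 to NK4 and 0.76, 0.61, 0.54 and -0.02 in HK1 to HK4. NK3 lay above HK4, so the groups overlapped, and the difference was 0.89 ± 0.28 (unadjusted p = 0.00592, adjusted p = 0.901). AGTR1, the main angiotensin II receptor, differed by 0.99 ± 0.35 (unadjusted p = 0.0124, adjusted p = 0.901), with HK1 and HK2 high and HK3 and HK4 close to the upper NK arrays. Galanin (GAL), a neuropeptide of limbic circuits, was well above background on 3 of 4 HK arrays and on no NK array with its dimmer probe. The ratio of its group means was at least 4.11-fold (unadjusted p = 0.0096, adjusted p = 0.901), with HK2 at -2.84 far above the other HK arrays. The brighter probe was well above background on 2 of 4 HK arrays and on no NK array. Its difference of 1.62 ± 0.79, or 3.06-fold by group means, was not at the criterion (unadjusted p = 0.0609, adjusted p = 0.946).

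Outside the peptide list, STAR, which carries cholesterol into mitochondria for steroid synthesis, was the 1 raised gene of 15 tested steroid and nuclear receptor genes. With the probe of the larger difference it was -6.19, -6.30, -6.17 and -6.72 in NK1 to NK4 and -5.10, -5.04, -5.92 and -5.37 in HK1 to HK4. HK lay above NK on all arrays, with HK3 nearest to NK. The difference was 0.99 ± 0.28 (unadjusted p = 0.00361, adjusted p = 0.888), the probe moved by 1 base gave 0.92 ± 0.33, and both kept their call without each array. The glucocorticoid receptor NR3C1 differed by -0.33 ± 0.21 and was not at the criterion. Follistatin (FST), which binds activins, differed by 1.16 ± 0.50 (unadjusted p = 0.0346, adjusted p = 0.932), with HK3 level with NK3. Its call was lost without NK1, NK2, NK4, HK1 or HK2, and the values were 1.84 on the first slide and 0.49 on the second.

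**Figure D3:**
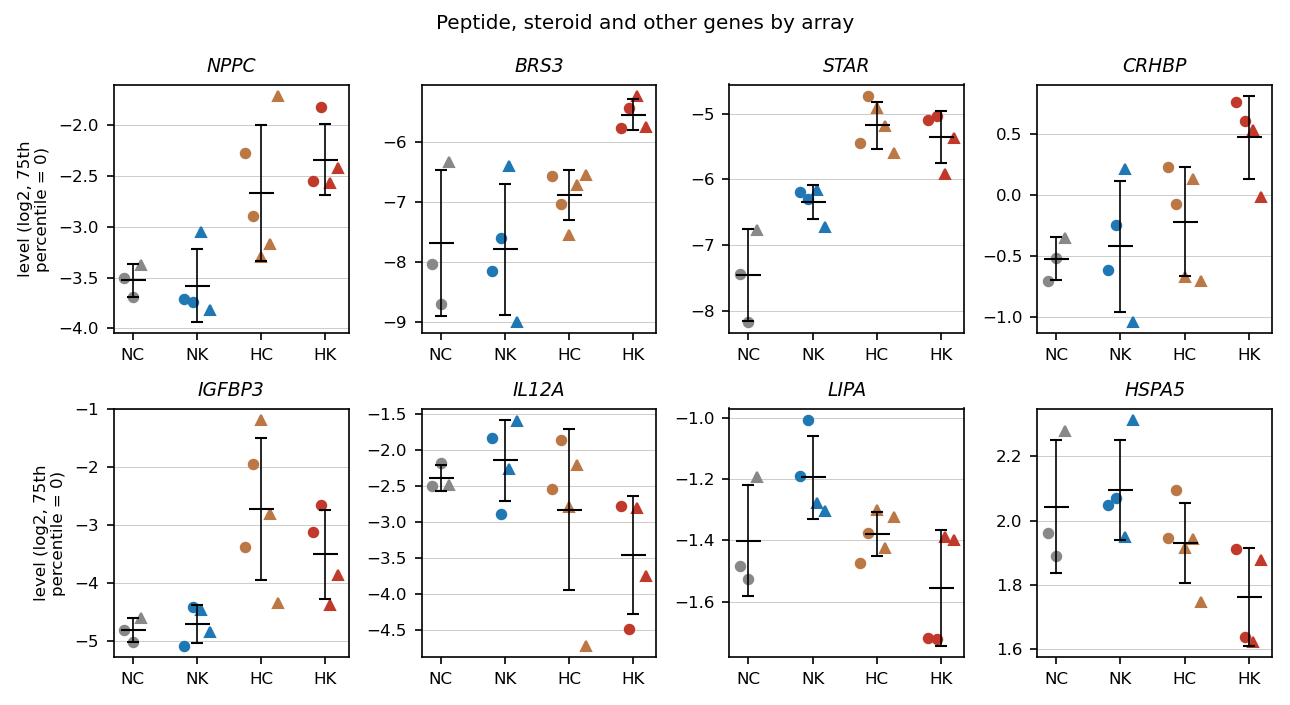
Level of 8 genes on each array (log2, 75th percentile of the array = 0) in the 4 groups, circles for the first slide and triangles for the second, with bars for the mean and SD. NPPC, BRS3 and STAR lie higher on each HK array than on any NK array, LIPA and HSPA5 lower, and the span of the y axis differs between panels.

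Genes of the hypoxia response were split. Of 22 tested, 4 were raised and 2 lowered, with a median of 0.02, as over all genes. The raised members were IGFBP1, IGFBP3, CITED2 and ARNT. IGFBP3, a binding protein of insulin-like growth factors, was -5.09, -4.41, -4.47 and -4.86 in NK1 to NK4 and -3.13, -2.66, -4.39 and -3.86 in HK1 to HK4, and HK3 stood just above NK while the other HK arrays were well above. The difference was 1.20 ± 0.54 (unadjusted p = 0.043, adjusted p = 0.94), 1.86 on the first slide and 0.54 on the second, and the call was lost without NK1, NK3, NK4, HK1 or HK2. IGFBP1, another binding protein and a target of hypoxia-inducible factors, was well above background on 2 of 4 HK arrays and on no NK array with its brightest probe. The ratio of its group means was at least 1.78-fold (unadjusted p = 0.0211, adjusted p = 0.901). Its call was lost without NK2, HK1 or HK4. CITED2, which restrains hypoxia-inducible factors, differed by 0.46 ± 0.19 (unadjusted p = 0.0271, adjusted p = 0.901), lost without NK1, NK4, HK1 or HK2. ARNT, the partner that these factors need to bind DNA, differed by 0.29 ± 0.13 (unadjusted p = 0.042, adjusted p = 0.94), and the probe moved by 1 base gave 0.24 ± 0.30. Its call was lost without NK2, NK3, NK4, HK3 or HK4. KDR, the main receptor of vascular endothelial growth factor, differed by -0.51 ± 0.19 (unadjusted p = 0.0174, adjusted p = 0.901), while 3 other KDR probes gave -0.07, -0.09 and -0.37. Its call was lost without NK3 or HK2. MIF was the other lowered member. HIF1A (-0.03), EPAS (-0.09), LDHA (-0.05), ALDOA (-0.06), GAPDH (0.05) and HK1, the hexokinase gene and not the array (0.00), differed little. VEGFA differed by 0.53 and the glucose transporter GLUT-1 by 0.43 ± 0.21 with its brighter probe. None of these was at the criterion, but a dimmer GLUT-1 probe, sharing a run of 59 bases with the brighter, met it. In the insulin-like growth factor axis 2 of 11 were raised, the same IGFBP1 and IGFBP3, with a median of -0.05. In angiogenesis 2 of 17 were lowered, KDR and FGFR1 (-0.34 ± 0.15, lost without NK1, NK3, NK4, HK2 or HK3).

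In glucose and solute transport 3 of 20 tested genes were raised and 1 was lowered (median 0.13). SLC16A1, a lactate transporter, was -0.78, -0.10, 0.16 and -0.05 in NK1 to NK4 and 0.72, 0.01, 0.41 and 0.31 in HK1 to HK4. NK3 lay above HK2, so the groups overlapped. The difference was 0.55 ± 0.19 (unadjusted p = 0.0117, adjusted p = 0.901) and was kept without each array. SLC4A4, a bicarbonate cotransporter of astrocytes, differed by 0.46 ± 0.19 (unadjusted p = 0.0294, adjusted p = 0.91), lost without NK2, NK4, HK2 or HK3. SLC15A1, a peptide transporter, was well above background on 2 of 4 HK arrays and on no NK array with its brighter probe. The ratio of its group means was at least 2.15-fold (unadjusted p = 0.0184, adjusted p = 0.901), and the call was lost without NK2 or HK1. The insulin-responsive transporter glut4 was the lowered member, at -4.79, -4.12, -4.21 and -5.93 in NK1 to NK4 and -6.12, -6.14, -6.22 and -5.91 in HK1 to HK4. NK4 lay among the HK arrays. The difference was -1.33 ± 0.48 (unadjusted p = 0.0147, adjusted p = 0.901), whereas the probe moved by 1 base gave -0.15 ± 0.51. In glutamate and GABA transmission 1 of 11 was raised and 1 lowered. GRIA4, an AMPA receptor subunit, differed by 0.31 ± 0.14 (unadjusted p = 0.0477, adjusted p = 0.946), and EAAT3, a neuronal glutamate transporter, by -0.54 ± 0.20 (unadjusted p = 0.0171, adjusted p = 0.901). The call for GRIA4 was lost without any 1 array except NK3 or HK2, and that for EAAT3 without NK1 or HK4. GRIA1 differed by -0.31 ± 0.25. NEUROD1, a factor of newly formed granule neurons, was 1.92, 1.35, 1.25 and 2.03 in NK1 to NK4 and 0.53, -1.31, 1.38 and 0.70 in HK1 to HK4, with HK2 lowest, and was not at the criterion.

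Among the lowered genes the naming rule gave COX15, LIPA, HSPA5 and TPM1, all with differences under a doubling. COX15, needed for heme A of cytochrome oxidase, was -2.42, -2.36, -2.02 and -2.09 in NK1 to NK4 and -2.51, -2.64, -2.76 and -2.69 in HK1 to HK4, a difference of -0.43 ± 0.15 (unadjusted p = 0.0107, adjusted p = 0.901). LIPA, the lysosomal acid lipase, was -1.19, -1.01, -1.28 and -1.30 in NK1 to NK4 and -1.72, -1.72, -1.39 and -1.40 in HK1 to HK4, a difference of -0.36 ± 0.11 (unadjusted p = 0.00592, adjusted p = 0.901). In both the HK arrays lay below all NK arrays and the call was kept without each array. On the slides separately LIPA gave -0.62 and -0.10, and COX15 -0.19 and -0.67. HSPA5, the chaperone of the endoplasmic reticulum, differed by -0.33 ± 0.12 (0.794-fold, unadjusted p = 0.0136, adjusted p = 0.901), lost without NK4, and the tropomyosin TPM1 by -0.29 ± 0.13, lost without any 1 array except HK2 or HK3. In the heat shock and oxidative stress list 1 of 10 was raised and 1 lowered, the file's NRF-2 (0.25 ± 0.09, lost without HK4) and HSPA5. Immediate early genes (10 tested), apoptosis (11), matrix and proteolysis (18), growth kinases (5) and cell cycle (10) had no member at the criterion. NK2 was the highest NK array for the matrix protease MMP2, at -1.53 against -3.97 to -3.83 in the others, and for the water channel AQP1, at -2.12 against -7.14 to -6.07. This is the array with the high choroid plexus markers, whose part in their HK-NK differences of -0.81 ± 0.41 and -1.49 ± 1.00 was not tested. A dimmer AQP1 probe met the criterion at -2.07 ± 0.86 (unadjusted p = 0.0308, adjusted p = 0.92). Among probes without a gene name, the smallest p belonged to EE828983 (0.69 ± 0.13) and DY522284 (1.06 ± 0.21) of the raised and to TC7352 (-0.50 ± 0.12) and EE750279 (-1.20 ± 0.30) of the lowered, none with overlap. DY522284 was -2.85, -3.04, -2.63 and -2.89 in NK1 to NK4 and -1.76, -1.69, -1.73 and -1.99 in HK1 to HK4.

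**Figure D4:**
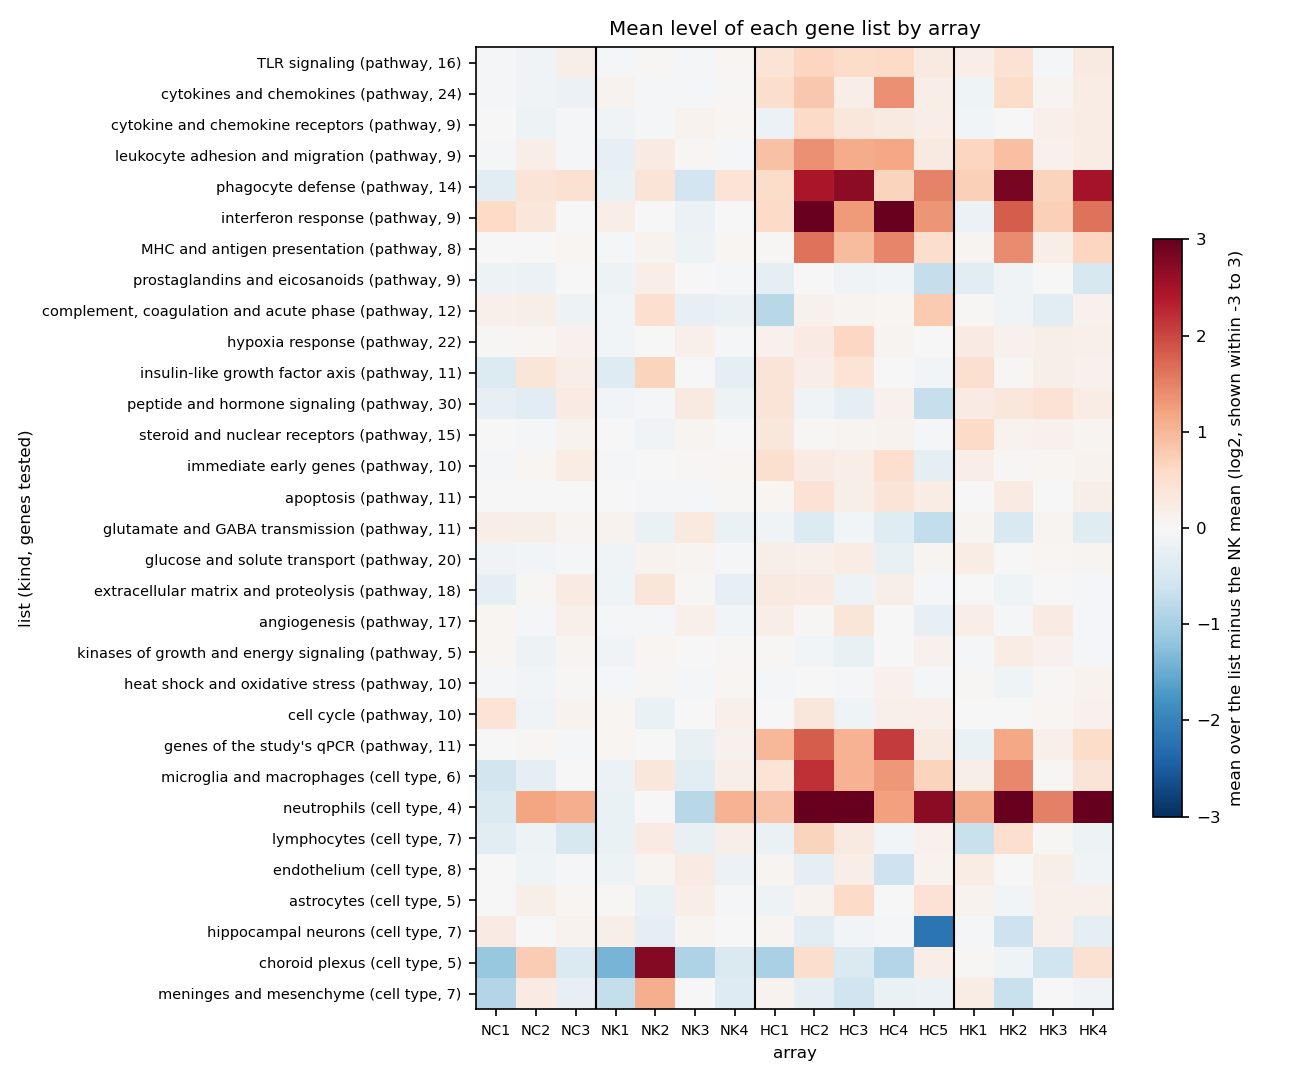
Mean over the tested genes of each list on each of the 16 arrays, minus the mean of the 4 NK arrays (log2, colour limited to -3 to 3), with black lines between NC, NK, HC and HK. The lists of phagocyte defense, interferon response and neutrophils stand out in HK2 and HK4 among the ketamine groups and in several HC arrays, and choroid plexus in NK2.

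The list means made the split between HK arrays plain. Phagocyte defense averaged 0.72, 2.84, 0.66 and 2.50 above the NK mean in HK1 to HK4, and interferon response -0.18, 1.83, 0.71 and 1.64. HK2 was on the first slide and HK4 on the second. Across single arrays, 19.1% to 23.6% of probes in an HK array lay above all 4 NK arrays and 15.5% to 25.9% below them, with HK2 at the top of both ranges. Shares near these arise when a single array is ranked against 4 others with no group difference, so they alone show no shift. Among HK, HK2 had the lowest mean correlation with the other 15 arrays, 0.974. In HC the phagocyte list averaged 0.55, 2.45, 2.68, 0.67 and 1.48 above the NK mean, so that the untreated hypoxic fetuses also varied.

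Whether the hypoxia difference itself differed with ketamine was tested as the interaction (HK-NK)-(HC-NC) in the same fit. At the criterion were 431 of 12545 probes (3.44%), 307 positive and 124 negative, and no probe passed adjustment. The split was 532 to 48 with normexp without the spots far below their local background. For the phagocyte list the medians were 1.24 in HK-NK and 1.32 in HC-NC, and for antigen presentation 0.69 and 0.74. For the interferon list they were 0.56 and 1.41, for microglia and macrophages 0.48 and 1.12, and for the genes followed by qPCR 0.45 and 1.17. Without HK2 the HK-NK medians were 0.32 for antigen presentation, 0.29 for microglia and macrophages and 0.11 for the genes followed by qPCR. The HC-NC medians were not recomputed without single HC arrays, which varied too. Above the NK mean, the HC arrays averaged 0.58 to 3.68 for the interferon list and 0.27 to 2.10 for the genes followed by qPCR. No member of the phagocyte, interferon or antigen presentation lists that was at the criterion in HK-NK was at the criterion in the interaction. CXCL10, for example, differed by 4.70 ± 1.63 in HC-NC, with an interaction of -0.98 ± 2.28, and CATHL3 by 2.46 ± 1.30, with an interaction of 1.96 ± 1.81. Errors of this size leave differences between the contrasts of several log2 units undetectable. TNF differed by 2.24 ± 0.70 in HC-NC (interaction -1.75 ± 0.97, unadjusted p = 0.0942) and CD14 by 1.97 ± 0.45 (interaction -1.14 ± 0.62, unadjusted p = 0.0875), neither at the criterion for the interaction.

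Among 72 named genes at the criterion in HK-NK, 11 were also at the criterion in the interaction, and none passed adjustment. These genes were chosen for HK-NK, which is a term of the interaction. A share above the 3.44% of all probes therefore follows in part from the choice, and the count is only a description. STAR had the larger difference without the drug: its HC-NC difference was 2.28 ± 0.29, and the interaction -1.29 ± 0.41 (unadjusted p = 0.00663), although no NC array was well above background for this probe, so that both values rest on an NC level at background. ARNT, SLC4A4 and GRIA4 were higher in HK than in NK but lower in HC than in NC. Their HC-NC differences were -0.54 ± 0.13, -0.50 ± 0.20 and -0.35 ± 0.15, and the interactions 0.84 ± 0.19 (unadjusted p = 0.000534), 0.96 ± 0.28 (unadjusted p = 0.00351) and 0.66 ± 0.20 (unadjusted p = 0.00616). These are values of 1 probe per gene, and those of a further ARNT probe and a further GRIA4 probe are not given here. For glut4 the signs were the other way, with 0.79 ± 0.50 in HC-NC and an interaction of -2.12 ± 0.69 (unadjusted p = 0.00818), and the probe moved by 1 base gave an interaction at unadjusted p = 0.577. SLC15A1 reached the interaction criterion with its dimmer probe (-0.20 ± 0.73 in HC-NC, with no NC array well above background), as did the 14-3-3 protein SFN (-0.20 ± 0.35 in HC-NC, 0.99 ± 0.34 in HK-NK), the homeobox factor BARX2 (-0.19 ± 0.57, 1.58 ± 0.55), CAUXIN (-0.28 ± 0.24, 0.52 ± 0.23), LIPA (0.02 ± 0.12, -0.36 ± 0.11) and the adaptor NCK1 (0.07 ± 0.09, -0.21 ± 0.09). NPPC had an interaction of 0.38 ± 0.44 (unadjusted p = 0.401), and BRS3, not well above background on any NC array, one of 1.43 ± 0.74 (unadjusted p = 0.0729).

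**Figure D5:**
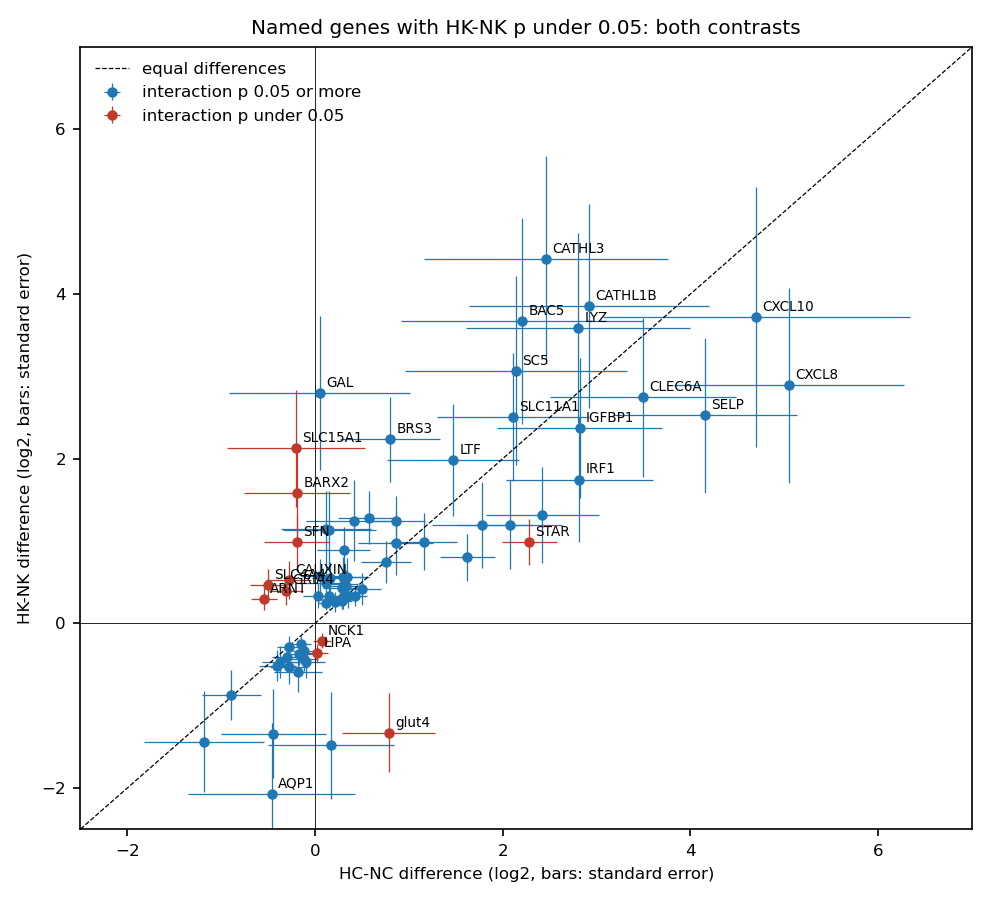
HK-NK difference (y axis) against HC-NC difference (x axis), both log2 with standard errors, for 72 named genes chosen for an unadjusted HK-NK p under 0.05, each by its probe of smallest p. The dashed line marks equal differences, and the 11 red genes, such as STAR below the line and SLC15A1 above it, have an interaction p under 0.05.

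How far single fetuses carried these differences was read from fits without each HK and NK array in turn. Of 52 probes that the naming rule gave at the criterion, 23 kept it in all 8 fits: CATHL3, CATHL1B, BAC5, LTF, NPPC, BRS3, GAL, CRHBP, AGTR1, STAR, TLR7, CD1D, SLC16A1, glut4, LIPA, COX15 and the 4 unnamed probes. The 52 were chosen on these same arrays for large, separated or small-p differences, so keeping the call is no independent support for them. Over all 660 calls, single fits kept from 350 (without HK2) to 508 (without HK3).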

How the data were processed

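Hippocampus RNA of 16 fetuses was hybridised to one-colour Agilent arrays, 1 array per fetus. The authors deposited scanner files from Feature Extraction 10.1.1.1, per the file headers, whose processed intensity is background-subtracted and not normalised between arrays. They also deposited a table of log2 values with the same quantiles on every array, which was used as an alternative. The submitters' processing notes name limma and R 2.15.1. A genome build was not given in the sources used here.

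The log2 processed intensity minus the array's 75th percentile over non-control probes was averaged over spots of a probe. Probes that 3 or more of the 16 arrays showed well above background were fitted with limma 3.58.1 in R 4.3.3, with no pseudocount. All 4 groups shared 1 estimate of spread, with the contrasts HK-NK, HC-NC and their interaction, two-sided, and Benjamini-Hochberg adjustment over 12545 probes. The criterion of an unadjusted p under 0.05 follows the study's methods. The number of arrays limits the precision. The fit was tested on simulated data.

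Of 15008 probes, 1562 were named: 703 by accession, 487 by symbol, 125 by gene number and 20 by an older symbol through a RefSeq gene table, and 227 by the file's own name. Probe sequences are those of the deposited array files, and no genome position is given. The genes described, the gene lists and the tests were chosen with earlier results of these data known. Named in the text were, in each direction, up to 12 named probes at the criterion with the largest HK-NK difference, no overlap and at least 3 of 4 arrays of the higher group well above background. Added to these were list members at the criterion or, for short lists, those of smallest p, the genes of the study's qPCR, and the 2 unnamed probes of smallest p in each direction. Other genes printed with values, such as CLEC6A, GRIA1, NEUROD1, ICAM1 and SFN, were chosen after their values were seen. Some genes measured here are not reported. A gene in a list was represented by its brightest tested probe. Where no array of a group showed a probe well above background, the fold was given as a bound. It was set against the lowest signal well above background on each array, or the measured level where that was higher. Such a bound is on the ratio of group means of these arrays and carries no sampling error.

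The alternatives were other background corrections, scalings, filters, priors and array weights, the authors' values, slide, replicate number and leaving out each array. In every group, slide 1 held replicates 1 and 2, and slide 2 the rest.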

Additional observations from a re-analysis of the deposited data

Results flagged for a closer look

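Among 184 groups of 4 arrays examined over 92 named probes, 6 held an array that stood apart from the other 3 (a gap above 0.83 of the group's range), where chance gives about 1 in 20. NK2 stood apart for MMP2, at -1.53, and was also the array with high choroid plexus markers. NK4 stood apart for PTGS1, at 0.296, and for the dimmer CXCL8 probe, at -7.51. NK3 stood apart for NPPC, at -3.05, which is the NK array nearest to HK. HK2 stood apart for the tight junction gene CLDN3, at -1.03, and HK3 for MIF, at 2.93, the array without which the MIF call was lost. The causes were not tested.

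The difference between hypoxia and normoxia differed between the ketamine and control groups, by the limma interaction at an unadjusted p under 0.05, in 9 of the named probes, and in none after adjustment (smallest adjusted p 1.0). The share over all probes was 3.44%, and the named probes were chosen partly for HK-NK, a term of the interaction. The interaction (HK-NK)-(HC-NC) was positive for ARNT (0.836, unadjusted p = 0.000534), SLC4A4 (0.965, unadjusted p = 0.00351), GRIA4 (0.657, unadjusted p = 0.00616), the energy-sensing kinase subunit PRKAA2 (0.669, unadjusted p = 0.0208) and the unnamed DY522284 (0.749, unadjusted p = 0.025). It was negative for STAR (-1.29, unadjusted p = 0.00663, and -1.13 with the probe moved by 1 base, with no NC array well above background for the first), glut4 (-2.12, unadjusted p = 0.00818) and LIPA (-0.383, unadjusted p = 0.0318).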

How the results depend on the processing

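No probe passed adjustment in HK-NK, so all 4 counts were 0 at an adjusted p under 0.05 (limma), and the HK-NK count stayed 0 without each HK or NK array. On the second slide alone 1 unnamed probe passed (adjusted p 0.00423, difference 7.37), against 2.31 and an unadjusted p of 0.339 over all arrays, and its levels fell into 2 separate ranges across the 16 arrays. The second slide alone gave 171 raised and 117 lowered probes, and the first alone 190 positive interactions. Without single arrays, raised probes ranged from 253 to 394, lowered from 244 to 420, positive interactions from 231 to 450 and negative from 92 to 219, the last without HC1. Array weights gave 212 negative interactions. Of the 660 calls, 350 were kept without HK2 and 508 without HK3, the extremes over single HK and NK arrays, and 376 with the authors' values, which gave 259 raised and 310 lowered. Of 96 probes at the criterion, those with a gene name and the 4 unnamed ones described, 91 stayed there with median scaling, 85 with quantile normalization, 56 with the authors' values, 49 on the first slide alone and 15 on the second, none with a turned sign.

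The normexp background correction gave 44 raised, 29 lowered, 58 positive and 40 negative interactions. On 6 arrays, 1 to 12 spots far below their local background lifted the lowest percentile of corrected intensities to between 148 and 1600, against 55.7 to 61.5 without those spots on any of the 16. Under it IL7 (0.0868), CD80 (0.10), glut4 (0.00982), TNFRSF11B (0.18), ITGA4 (0.13), CHRD (0.0889) and FGFR1 (0.0063 with the second probe) turned positive. Leaving those spots out, chosen after seeing the data, gave 318 raised, 218 lowered, 532 positive and 48 negative.

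For HK and NK arrays of the same number, the deviations from group means correlated at 0.03, 0.16, 0.12 and 0.26, not all above 0.1. HK2, HK3 and HK4 each correlated best with the NK array of their own number, but HK1 did so with NK3. The numbers were therefore not taken as pairs, and whether they mark pairs was not settled. A replicate block fitted to all 4 groups gave 523 raised and 545 lowered probes and 422 positive and 244 negative interactions. With a replicate block in HK and NK alone there were 526 raised and 412 lowered. Probes near background limit what can be seen, and no depth exists for arrays.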
